A study of Homo sapiens with 2 samples.

Results

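The miRNAs described here are those whose name carries a number of 1000 or more. They were chosen by name alone, as every row called hsa-miR- followed by such a number, with any arm or letter, in the small RNA profiles of MDA-MB-231-IV2-1 cells. This rule took 90 of the 425 miRNAs listed in either of 2 libraries, and the other 335 are called lower-numbered below. MDA-MB-231-IV2-1 is a highly metastatic subline of MDA-MB-231, a human triple-negative breast cancer cell line. The labels give the cell line as MDA-MB-231 and the titles as MDA-MB-231-IV2. One library, called N.C, came from cells given the scrambled control siRNA of that name. The other, called siLOC550643, came from cells given a pool of siRNAs against the transcript LOC550643. RNA was taken 48 h after transfection in both. With 1 library per condition differences could not be set against a spread between replicates, and p-values were left out. The values are in RPM, reads scaled to a fixed library total, and 1 read was worth 5.29 RPM in the N.C library and 2.03 RPM in the siLOC550643 library, or about 189034 and 491617 reads on miRNAs, so that the siLOC550643 library was 2.60 times deeper. Values of at most 3 reads are called at the floor, and this 3-read floor was 15.9 RPM in the N.C library and 6.10 RPM in the siLOC550643 library. Intervals are 95% Clopper-Pearson intervals of the estimated reads and cover counting error only. Where a library had 1 to 3 reads of a miRNA the fold change is given only with its interval, and where it had none, no fold change is given. The level of LOC550643 in these 2 samples was not analysed here.

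A miRNA is cut from the stem of a hairpin transcript, and its 5p or 3p suffix names the arm of the stem it comes from. Bases 2 to 8 from its 5′ end, the seed, largely decide which transcripts it pairs with. Numbers were given in the order of discovery, so that the low numbers hold the abundant and broadly conserved families found by cloning, and the high numbers hold mostly miRNAs first seen by deep sequencing. Many of the latter are limited to primates, are expressed at low levels or have been questioned as fragments of other RNAs. Of the 90 names, 19 carried a 5p suffix, 18 a 3p suffix and 53 no arm.

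RefSeq (GRCh38.p14) held a mature sequence under the same name for 71 of the 90 miRNAs (78.9%). Because this is under 80%, mature length, base composition and shared seeds were not compared between the members and the lower-numbered miRNAs. Counts of seeds are given for these 71 only. The exception is seed matches to LOC550643, which are set beside the share over all listed miRNAs with a sequence. The sequences below are shown because they belong to the most abundant members, to the members that differed most between the libraries, or to pairs that share much of a sequence. The seed is in capitals.
miR-1307-3p: aCUCGGCGuggcgucggucgug
miR-1307-5p: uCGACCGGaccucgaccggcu
miR-3681-5p: uAGUGGAUgaugcacucugugc
miR-3615: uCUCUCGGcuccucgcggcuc
miR-1299: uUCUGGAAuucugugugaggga
miR-3934-5p: uCAGGUGUggaaacugaggcag
miR-1246: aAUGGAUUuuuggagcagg
miR-1290: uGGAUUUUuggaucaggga
miR-1260a: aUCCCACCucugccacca
miR-1260b: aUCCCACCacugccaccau
miR-1268a: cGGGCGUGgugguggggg
miR-1268b: cGGGCGUGguggugggggug
miR-1269a: cUGGACUGagccgugcuacugg
miR-1269b: cUGGACUGagccaugcuacugg
In GRCh38 the mature miR-1307-3p lies at chr10:103394301-103394322 on the minus strand, and GENCODE 29 places its hairpin in an exon of ATP5MD outside the coding sequence. The mature miR-3615 lies at chr17:74748663-74748683 on the plus strand, and its hairpin in an exon of SLC9A3R1 outside the coding sequence. The mature miR-1299 lies at chr9:40929010-40929031 on the minus strand, and its hairpin between genes. The mature miR-3681-5p lies at chr2:12199138-12199159 on the plus strand, and its hairpin in an intron of MIR3681HG, a long non-coding RNA.

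The 90 miRNAs made up many of the names and very few of the reads. The N.C library listed 73 of them, 19.4% of its names, and the siLOC550643 library 71 of them, 18.9% of its names, and 54 were in both. Their reads were 0.261% of all miRNA reads in the N.C library (493 reads, interval 0.238% to 0.285%) and 0.251% in the siLOC550643 library (1236 reads, 0.238% to 0.266%). The log2 ratio of these shares was -0.05 (interval -0.20 to 0.10), and a difference between the libraries was not detectable. The conserved families among the lower-numbered miRNAs, 189 names, held 93.4% and 92.3% of the reads. As a scale for single miRNAs, miR-148a-3p, the most abundant of them, was at 195101 RPM in the N.C library and 243993 RPM in the siLOC550643 library. The most abundant member, miR-1307-3p, ranked 64 in the N.C library and 67 in the siLOC550643 library.

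Most of the members were seen as a handful of reads. In the N.C library 21 exceeded 3 reads and 36 were seen as exactly 1 read. In the siLOC550643 library 38 exceeded 3 reads, and these 38 included all 21 of the N.C library. Of the lower-numbered miRNAs, 180 of 335 (53.7%) exceeded 3 reads in both libraries, against 21 of the 90 members (23.3%). The 52 members that never exceeded 3 reads held 9.34% of the members' RPM in the N.C library and 4.49% in the siLOC550643 library. The cap of 3 reads is 15.9 RPM in the first and 6.10 RPM in the second, so these shares cannot be compared between libraries. The median over listed members was 7.94 RPM in the N.C library and 8.14 RPM in the siLOC550643 library. The same medians were 37.0 and 31.5 RPM for the lower-numbered miRNAs.

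**Figure D1:**
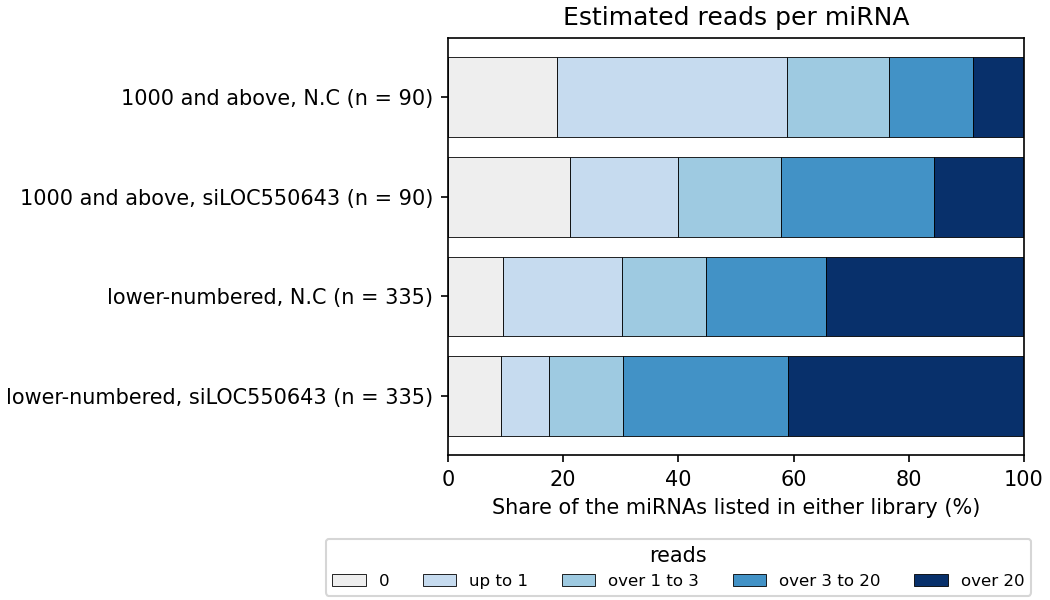
Share of the 90 miRNAs numbered 1000 and above and of the 335 lower-numbered miRNAs (horizontal axis, %) that had 0, up to 1, over 1 to 3, over 3 to 20 or over 20 estimated reads in each library. Over 20 reads were reached by 8.89% of the 90 in the N.C library and 15.6% in the siLOC550643 library, against 34.3% and 40.9% of the lower-numbered.

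The numbers were unevenly spread. Between 1000 and 1999 there were 36 members, which held 64.2% of the members' RPM in the N.C library and 60.5% in the siLOC550643 library. The 2 members between 2000 and 2999 held 0.609% and 0.648%, the 23 between 3000 and 3999 held 18.1% and 19.5%, and the 19 between 4000 and 4999 held 14.6% and 17.0%. From 5000 to 5999 there were 6 members, of which 3 exceeded 3 reads in a library. From 6000 to 6999 there were 4 members, and no member among these 4 exceeded 3 reads in either library. Names on either side of the limit held both abundant and unseen miRNAs. The nearest listed names below it were miR-941, at 3486 RPM in the N.C library and 4941 RPM in the siLOC550643 library, miR-942, at 0 and 2.03 RPM, and miR-943, at 10.6 and 0 RPM. The nearest above it were miR-1180, at 111 and 52.9 RPM, miR-1246, at 212 and 237 RPM, and miR-1249, at 0 and 4.07 RPM.

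The 5 most abundant members of each library held 47.9% of the members' RPM in the N.C library and 50.3% in the siLOC550643 library. The most abundant in both was miR-1307-3p, at 582 RPM in the N.C library (110 reads, interval 478 to 701 RPM) against 470.0 RPM in the siLOC550643 library (231 reads, 411 to 535 RPM). ATP5MD, whose exon holds its hairpin, encodes a small subunit of mitochondrial ATP synthase. Fold changes are given for siLOC550643 over N.C and were taken after adding 1 RPM. That of miR-1307-3p was -0.31 on the log2 scale (-0.64 to 0.03), with the narrowest interval among the members over 3 reads in both libraries. From the other arm of the same hairpin, miR-1307-5p had 2 reads in the N.C library and 13 in the siLOC550643 library. The 5p arm thus made up 1.79% of the reads of this hairpin in the N.C library (interval 0.217% to 6.30%) and 5.33% in the siLOC550643 library (2.87% to 8.94%), and these intervals overlapped.

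The next was miR-1246, whose sequence resembles part of the U2 spliceosomal RNA. It was at 212 RPM in the N.C library (40 reads) and 237 RPM in the siLOC550643 library (116.5 reads), a log2 fold change of 0.16 (-0.36 to 0.73). miR-3681-5p was at 164 RPM (31 reads) in the first and 169 RPM (83 reads) in the second, a log2 fold change of 0.04 (-0.57 to 0.69). For both, the counting intervals included 0 and left out a 2-fold change in either direction.

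miR-1260b and miR-1260a, which resemble a stretch of transfer RNA, were at 153 and 138 RPM in the N.C library and at 176 and 159.7 RPM in the siLOC550643 library. Their log2 fold changes were 0.20 (-0.42 to 0.87) and 0.21 (-0.43 to 0.92). miR-1269b was at 100.5 RPM (19 reads) and 113 RPM (55.5 reads), a log2 fold change of 0.17 (-0.62 to 0.99). All 3 were slightly higher in the siLOC550643 library, by less than the counting error.

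**Figure D2:**
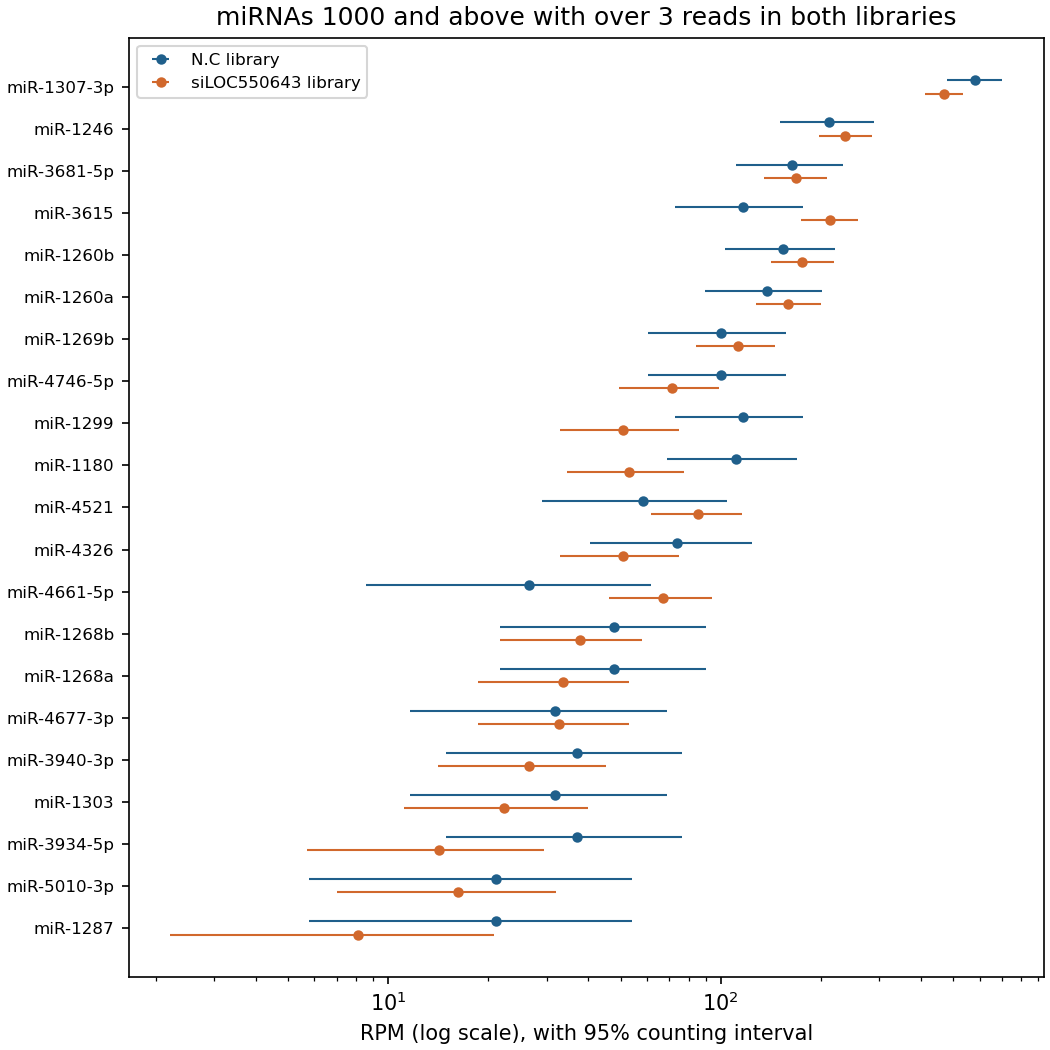
RPM (horizontal log axis) of the 21 miRNAs numbered 1000 and above that exceeded 3 estimated reads in both libraries, in the N.C and the siLOC550643 library; bars are 95% counting intervals. miR-1307-3p stands above the others at 582 and 470.0 RPM, and for each of the 21 the bars of the libraries overlap.

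Among the 21 members over 3 reads in both libraries, 9 were higher and 12 lower in the siLOC550643 library, and the log2 fold changes ran from -1.32 to 1.31 with a median of -0.33. For 1 of these 21 the interval of the ratio lay above 0 and for 2 below 0. Over all 201 miRNAs that exceeded 3 reads in both libraries, the interval lay above 0 for 10.9% and below 0 for 24.9%. Members had fewer reads, a median of 14 in the N.C library against 44.3 for the lower-numbered miRNAs, and wider intervals go with fewer reads.

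The member whose interval lay above 0 was miR-3615. It was at 116 RPM in the N.C library (22 reads, interval 72.9 to 176 RPM), against 214 RPM in the siLOC550643 library (105 reads, interval 175 to 259 RPM). This is a log2 fold change of 0.87 (0.20 to 1.61), under 2-fold, and of 1.07 when scaled by the median of ratios, which centres the 326 miRNAs seen in both libraries on equal values. Its hairpin lies within SLC9A3R1, the gene of a scaffold protein that links membrane proteins to the cytoskeleton.

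The members whose intervals lay below 0 were miR-1299 and miR-1180. miR-1299 was at 116 RPM in the N.C library (22 reads) and 50.9 RPM in the siLOC550643 library (25 reads), a log2 fold change of -1.18 (-2.08 to -0.30). miR-1180, whose hairpin lies in an intron of B9D1, a gene of the ciliary transition zone, was at 111 RPM (21 reads) and 52.9 RPM (26 reads), a log2 fold change of -1.06 (-1.96 to -0.17). When scaled by the median of ratios these were -0.98 and -0.86, no longer past 2-fold. The RPM intervals of the libraries still overlapped at their ends for miR-3615, miR-1299 and miR-1180.

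Larger differences stood on fewer reads. miR-3934-5p, from a hairpin antisense to UQCC2, had 7 reads in each library, which is 37.0 RPM in the N.C library and 14.2 RPM in the siLOC550643 library. Its log2 fold change of -1.32 had an interval of -3.12 to 0.36. miR-1287, whose hairpin overlaps a coding exon of PYROXD2, had 4 reads in each library (21.2 and 8.14 RPM), and its interval of -3.80 to 1.05 was the widest of the 21. In the other direction, miR-4661-5p had 5 reads in the N.C library (26.5 RPM) and 33 in the siLOC550643 library (67.1 RPM), a log2 fold change of 1.31 whose interval, -0.022 to 3.06, reached just under 0.

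For the remaining members over 3 reads in both libraries every interval included 0. Higher values in the siLOC550643 library were seen for miR-4521, at 58.2 and 85.4 RPM (log2 fold change 0.55), and miR-4677-3p, at 31.7 and 32.6 RPM (0.04). Lower values were seen for miR-4746-5p, at 100.5 and 71.2 RPM (-0.49), miR-4326, at 74.1 and 50.9 RPM (-0.53), miR-1268b, at 47.6 and 37.6 RPM (-0.33), and miR-1268a, at 47.6 and 33.6 RPM (-0.49). The same was seen for miR-3940-3p, at 37.0 and 26.4 RPM (-0.47), miR-1303, at 31.7 and 22.4 RPM (-0.49), and miR-5010-3p, at 21.2 and 16.3 RPM (-0.36). miR-3940 lies in KHSRP, the gene of an RNA-binding protein that takes part in miRNA maturation, and miR-5010 in ATP6V0A1, the gene of a proton pump subunit.

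**Figure D3:**
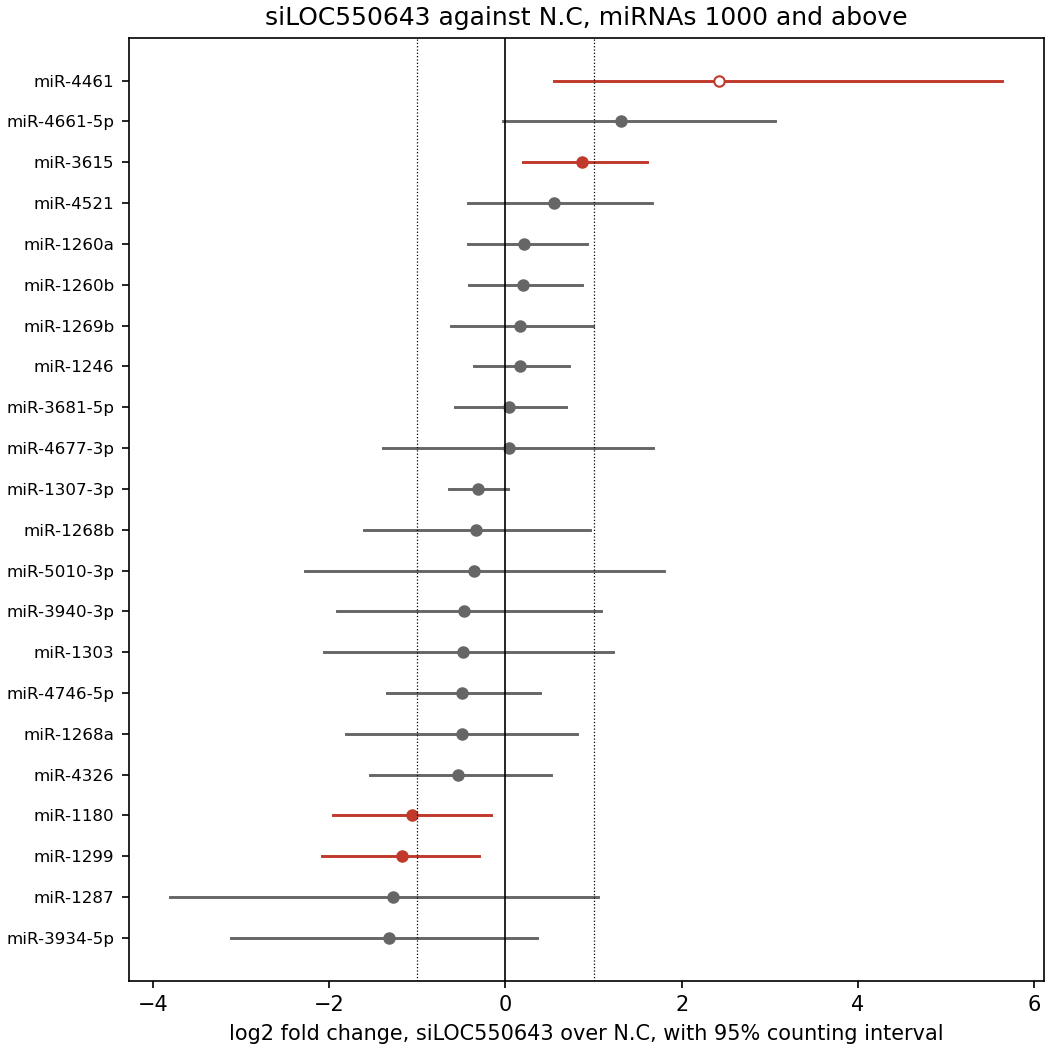
log2 fold change, siLOC550643 over N.C (horizontal axis), of the 21 miRNAs numbered 1000 and above with over 3 reads in both libraries, and of miR-4461 (open circle, 2 reads in the N.C library); bars are 95% counting intervals, the dotted lines mark 2-fold, and red marks bars that leave out 0. The red ones are miR-4461 and miR-3615 on the higher side and miR-1180 and miR-1299 on the lower side. miR-4461 was added as the extreme of the members over 3 reads in the siLOC550643 library alone. Its bar makes no allowance for that choice.

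There were 17 of the 90 members that exceeded 3 reads in the siLOC550643 library alone, and no member did so in the N.C library alone. Over all 425 listed miRNAs, 70 did so in the siLOC550643 library alone and 5 in the N.C library alone. The deeper siLOC550643 library has the lower floor, and at the level of the N.C floor, 15.9 RPM, the members above it numbered 21 in the N.C library and 26 in the siLOC550643 library. Of the 17, miR-4461 had the most reads in the siLOC550643 library. It had 2 reads in the N.C library (10.6 RPM, interval 1.28 to 38.2 RPM) against 30 reads in the siLOC550643 library (61.0 RPM, 41.2 to 87.1 RPM). The log2 fold change of miR-4461 was 2.42 (0.55 to 5.64), and its RPM intervals did not overlap between the libraries. All 17 passed the floor through the siLOC550643 library, and miR-4461 was the extreme among them. The intervals make no allowance for that choice. The hairpin of miR-4461 lies in an intron of PCBD2, and the opposite strand there carries MTND4LP30, a pseudogene copied from a mitochondrial gene.

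For the others of the 17 the RPM intervals of the libraries overlapped. miR-4792 had 1 read and 15 reads (5.29 and 30.5 RPM), a log2 fold change of 2.32 whose interval, -0.17 to 7.92, included 0. miR-1290 had 1 read and 10.5 reads, and its interval was -0.70 to 7.51. miR-3662 and miR-3928 had no read in the N.C library and 5 reads each in the siLOC550643 library (10.2 RPM), and miR-1257 had none and 4 reads (8.14 RPM). All 3 values lie under the N.C floor of 15.9 RPM. miR-1306-5p, whose hairpin overlaps a coding exon of DGCR8, itself the gene of a protein that recognises miRNA hairpins, had 3 reads (15.9 RPM) and 4 reads (8.14 RPM), and the interval of its log2 ratio, -3.53 to 1.81, allows either direction. miR-6515-5p, whose hairpin lies in an intron of CALR, had no read and 3 reads, at or under the floor in both libraries. The paper names miR-6515-5p among candidate miRNAs that LOC550643 could sponge.

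Counted by the 2-fold threshold over all 90 members, 24 (26.7%) were higher and 36 (40.0%) lower in the siLOC550643 library. Over all 425 listed miRNAs the threshold was passed by 17.9% upward and by 27.3% downward. Of the 24 higher members, 14 had at most 3 reads in both libraries, 9 exceeded 3 reads in the siLOC550643 library alone, and 1, miR-4661-5p, in both. Of the 36 lower members, 32 had at most 3 reads in both libraries. These 36 included 19 with 1 read in the N.C library and none in the siLOC550643 library, and all 13 members whose number of reads was the same in both. In the deeper siLOC550643 library the same number of reads is a lower share. It is a log2 difference of -1.38 in RPM, before 1 RPM is added. With values at or under 3 reads set to the floor of their library, and members at the floor in both left out, 2 of 38 members (5.26%) passed 2-fold upward and 4 (10.5%) downward. Over the 276 miRNAs treated in the same way these shares were 3.99% and 11.2%, close to those of the members. Of the 38 members, 17 exceeded 3 reads in the siLOC550643 library alone and were set against the higher N.C floor of 15.9 RPM. For such miRNAs this rule understates a rise, and a few siLOC550643 reads against no N.C read come out as lower.

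**Figure D4:**
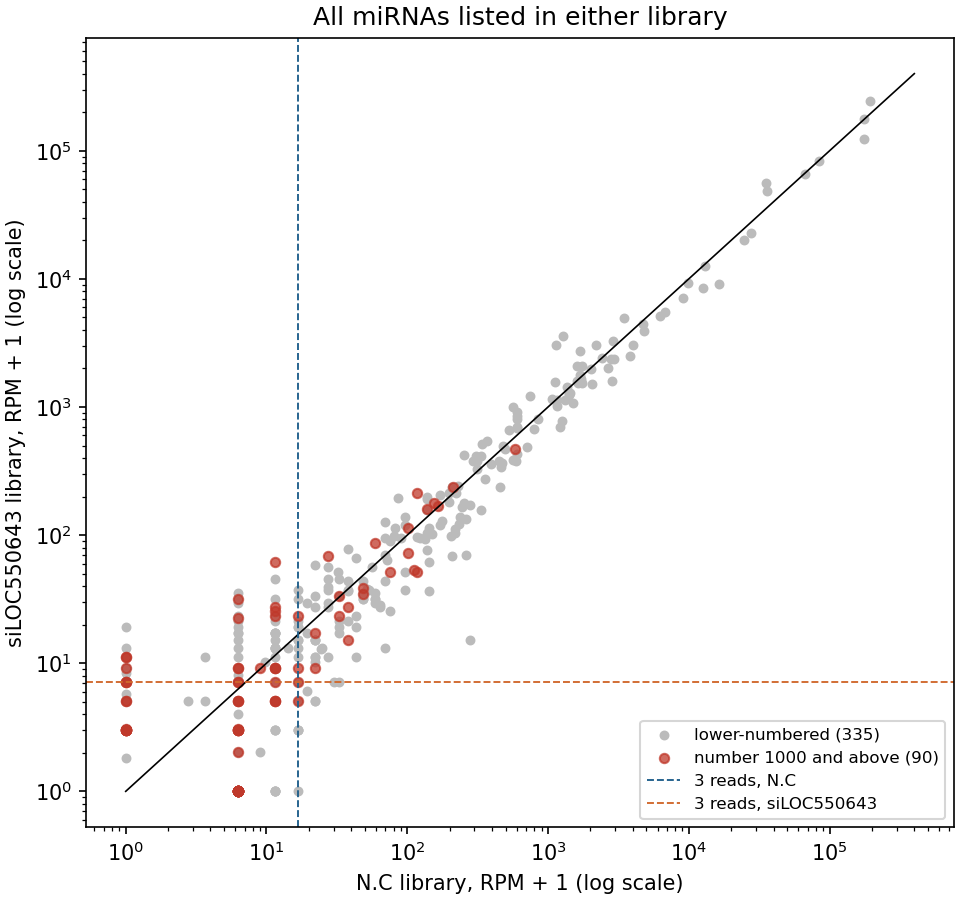
RPM + 1 of each of the 425 miRNAs in the N.C library (horizontal log axis) and the siLOC550643 library (vertical log axis), with the 90 numbered 1000 and above in red, the line of equal values in black and the 3-read floors dashed; a value of 1 stands for no read. The red points end at 582 RPM in the N.C library, and most lie below or to the left of a floor.

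The median log2 fold change was -0.34 over the 90 members (quartiles -1.27 and 1.10), -0.15 over the 335 lower-numbered miRNAs (-0.94 and 0.48) and -0.07 over the 189 of conserved families (-0.63 and 0.45). Scaling by the median of ratios multiplies every siLOC550643 value by the same factor, and values near 0 move less once 1 RPM is added. It gave medians of -0.16 for the members and 0.040 for the lower-numbered miRNAs, so that the order was the same and the sign of the latter turned. Over 3 reads in both libraries, the medians were -0.33 for 21 members, -0.18 for 180 lower-numbered miRNAs and -0.15 for 113 of conserved families. When the lower-numbered miRNAs were held to the levels that members reach, up to the mean of miR-1307-3p, the median of 117 of them was -0.40. For 61 of conserved families at these levels it was -0.28.

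At the lowest levels members and lower-numbered miRNAs were spread alike. With a mean of at most 5 RPM, 45 members and 74 lower-numbered miRNAs had the same median of -1.05 and the same quartiles of -2.65 and 1.60, which are the steps of a few reads. Between 5 and 20 RPM the median size of the log2 fold change, without its sign, was 1.01 for 25 members and 0.99 for 87 lower-numbered miRNAs, and with its sign the median was 0.03 and -0.05. Between 20 and 100 RPM it was 0.53 for 13 members and 0.63 for 57, and with its sign -0.49 and -0.016. From 100 to 1000 RPM it was 0.20 for 7 members and 0.49 for 66, and with its sign 0.17 and -0.24. The order of members and lower-numbered miRNAs thus differed between levels. No member among the 7 passed 2-fold, against 1 higher and 7 lower of the 66. The ranges from 5 RPM upward held, in order, 46, 25 and 42 miRNAs of conserved families. Their median sizes were 0.59, 0.59 and 0.43, and with sign 0.17, 0.0083 and -0.18.

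The lists were nearly as long in the shallow library as in the deep one. Thinning the siLOC550643 reads to the depth of the N.C library would leave 53.9 listed members on average, where the N.C library listed 73, and 269 listed lower-numbered miRNAs, where it listed 303. For members over 3 reads the same calculation gave 23.7, where the N.C library had 21. Of the 36 members with 1 read in the N.C library, 19 (52.8%) had no read in the siLOC550643 library, against 26 of 66 (39.4%) lower-numbered miRNAs. Every member listed in the N.C library alone was there as 1 read. The 17 listed in the siLOC550643 library alone had 1 to 5 reads, with a median of 1.

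Some members may have shared reads with a name of similar sequence, and their values are uncertain for that reason. Values that are no whole number of reads were taken as reads divided between names, though how the authors' tool divides reads is not given. miR-1260a and miR-1260b, both shown above, have the same seed and differ by U9A in their common length, with the base of miR-1260a first and positions counted from the 5′ end, and were at 78.5 and 86.5 reads in the siLOC550643 library. miR-1269a and miR-1269b differ by G13A and were at 0.501 and 55.5 reads there, so that nearly all reads went to miR-1269b. The 18 bases of miR-1268a are the first 18 of miR-1268b, and their values were 9 and 9 reads in the N.C library and 16.5 and 18.5 reads in the siLOC550643 library. miR-1246 and miR-1290 share a run of 12 bases and were at 116.5 and 10.5 reads in the siLOC550643 library. Of the 71 members with a sequence, 1 shared its seed with a listed lower-numbered miRNA, miR-1271-5p, which has the seed of miR-96-5p and was seen as 1 read in the siLOC550643 library.

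Members were searched for fragments of other structured RNAs and for special hairpins by lists of numbers. The lists were drawn from background knowledge and may be incomplete. Of a list of 12 such numbers of structured RNAs, 4 names were listed, miR-1246, miR-1260a, miR-1260b and miR-4454, the last at 2 reads in each library. These 4 held 19.7% of the members' RPM in the N.C library and 22.9% in the siLOC550643 library. No miRNA of a list of 181 numbers of mirtrons, hairpins that are whole short introns, was listed, and no miRNA of 5 numbers antisense to lower-numbered hairpins. In GENCODE 29, which does not annotate nuclear transfer RNA genes, no member's hairpin overlapped another small RNA gene on the same strand. The hairpin of 1 member, and those of 13 lower-numbered miRNAs, overlapped a miRNA gene on the opposite strand.

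The members' hairpins were spread over introns, exons and the space between genes. In GENCODE 29, all 90 members had an annotated hairpin. Of these, 35 (38.9%) lay in introns, 8 (8.89%) overlapped a coding exon, 10 (11.1%) lay in other exons, 14 (15.6%) had only a gene on the opposite strand and 15 (16.7%) lay between genes, and the other 8 had several copies or classes. Of 332 lower-numbered miRNAs with a hairpin, 56.9% lay in introns, 1.81% overlapped a coding exon, 20.2% lay in other exons, 3.31% had only an opposite gene and 12.0% lay between genes. Where the hairpin lay in a gene, that gene was protein-coding for 48 of 53 members (90.6%) and for 159 of 262 lower-numbered miRNAs (60.7%). The median GC content of the hairpins was 54.3% for members and 50.7% for lower-numbered miRNAs, with quartiles of 46.3% and 62.2% and of 42.9% and 57.3%.

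Few members had a listed neighbour on the genome. Among miRNAs with 1 annotated hairpin, 3 of 77 members (3.90%) had another listed hairpin within 10 kb on the same strand, against 113 of 282 lower-numbered miRNAs (40.1%). The 3 were miR-3187-3p, miR-4717-3p and miR-4745-5p, each at no more than 1 read in a library. The places and neighbours were not tested, since hairpins of a cluster are not independent and the rule by number follows the order of discovery.

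The study asked whether LOC550643 pairs with miRNAs, so the members' seeds were searched in its 3 isoforms, V1 (718 nt), V2 (581 nt) and V3 (476 nt). The exact reverse complement of bases 2 to 8 was found in an isoform for 4 of the 71 members with a sequence (5.63%) and for 21 of all 350 listed miRNAs with a sequence (6.0%), a share near that of the members. For the 2 of these that exceeded 3 reads, the matched stretch of V1 is shown with 10 bases on each side, the match in capitals.
V1 bases 677 to 703, match to miR-1246: tattcctataAATCCATtaaggcccca
V1 bases 115 to 141, match to miR-3681-5p: cctccgggagATCCACTctcccacctg
The match to miR-1246 lies in all 3 isoforms, at bases 687 to 693 of V1, and that to miR-3681-5p in V1 and V2, at bases 125 to 131 of both. The levels of these 2 miRNAs, given above, had log2 fold changes of 0.16 and 0.04 with intervals that included 0. The other matches were those of miR-6724-5p, with 1 read in the N.C library and none in the siLOC550643 library, and miR-5000-3p, with none and 1 read. A match to bases 2 to 7 was found for 12 of the 71 members (16.9%), the 4 above included, and for 16.6% of all listed miRNAs with a sequence. Of these 12, 5 exceeded 3 reads in a library. Besides miR-1246 and miR-3681-5p they were miR-3934-5p, lower in the siLOC550643 library, and miR-1290, higher there, both with a match in each isoform, and miR-2682-5p, with 2 and 4 reads and a match in V1 and V2. For all 5 the interval of the log2 ratio included 0. miR-6515-5p, a candidate in the paper, had no sequence under the same name in RefSeq and was not searched. A match of letters is a description and shows no binding.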

How the data were processed

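Total RNA of 2 samples of an established cell line, 1 per condition, was used for small RNA libraries. Per the study's methods these were made with the NEBNext small RNA kit and sequenced on a MiSeq, while the labels' protocol describes other kits. The submitters' processing notes name FastQC, cutadapt and the build hg38, and the authors assigned reads with their own tool. The aligner, miRNA release and filters are not given in the sources used here. The authors deposited reads scaled to a fixed total (RPM) for each listed mature miRNA. Here each table was rescaled to a sum of 1000000 RPM and a missing miRNA set to 0. The step worth 1 read was fitted on values up to 20 reads, of which 92.9% of 253 in the N.C library and 91.5% of 224 in the siLOC550643 library lay within 0.1 of a whole number. As the rest did not, no count test was run. Fold changes used log2(RPM + 1), which understates low values; intervals of the ratio used whole reads without the pseudocount. Hairpins came from GENCODE 29, as overlap with any transcript of a gene. Members named in the text are all those over 3 reads in both libraries, the 5 largest rises and falls among those over 3 reads in a library, miR-6515-5p and the 3 names nearest 1000 on each side; others were named after their values were seen. Members and lists were chosen with earlier results of these data known. Scripts were tested on simulated tables. Analyses used Python 3.11.15, numpy 2.4.6, pandas 2.3.3 and scipy 1.17.1.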

Additional observations from a re-analysis of the deposited data

How the results depend on the processing

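No paired analysis was possible because either group holds a lone library. The counts past 2-fold rest on values of a few reads. The 24 higher and 36 lower members became 6 and 1 with a pseudocount of 10 RPM, 7 and 17 among members above 0 in both libraries, and 10 and 4 among those over 3 reads in a library. With the 3-read floor, an alternative chosen after seeing the data, they became 2 and 4. With the median of ratios they were 25 and 27, with a pseudocount of 0.1 RPM 24 and 36, and with a 1.5-fold threshold 25 and 38. The median log2 fold change of the members, -0.34, was -0.16 with the median of ratios and turned to 0.10 among members over 3 reads in a library, a filter that members pass through the deeper siLOC550643 library. That of the lower-numbered miRNAs, -0.15, turned to 0.040 with the median of ratios and was -0.039 with that filter. Both medians moved by no more than 0.1 with pseudocounts of 0.1 and 10 RPM, without values at 0, and over 3 reads in both libraries, the last added after seeing the data. At the depth of the N.C library, 23.7 in place of 38 members of the siLOC550643 library would exceed 3 reads, and 53.9 in place of 71 would be listed. The members' share of reads fell to 0.202% in the N.C library and 0.204% in the siLOC550643 library without miR-1307-3p. Without miR-1246, miR-1260a, miR-1260b and miR-4454, again added later, it was 0.209% and 0.194%. Leaving out members over another small RNA gene removed no member and was not run. For the 21 members over 3 reads in both libraries, the 42 log2 fold changes under the median of ratios or a pseudocount of 10 RPM kept their sign and stayed within the counting interval, while the number past 2-fold went from 1 higher and 4 lower to 2 and 2 with the median of ratios. The median of ratios moves each value up by at most 0.199, and a larger pseudocount draws values towards 0. Neither was likely to turn a sign or leave such wide intervals, so this is a weak check.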
